A study of Mus musculus with 7 samples.

Results

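The genes described here encode the heavy and light chains of sarcomeric myosin in the mouse heart, a kinase that acts on a light chain, and proteins that bind the myosin filament. They were listed by symbol as Myh6, Myh7, Myh7b, Myl2, Myl3, Myl4, Myl7, Mylk3, Mybpc3 and Mybphl, and all 10 were found among the 20927 genes of the count table. RNA was extracted from left ventricle, poly(A) RNA was sequenced, and reads were counted per gene in 3 wild-type hearts (WT, replicates 1, 3 and 4) and 4 hearts homozygous for the titin missense variant A178D (A178D, replicates 1 to 4). The variant was introduced by CRISPR-Cas9 in embryonic stem cells, and the mice were backcrossed onto C57BL/6J, the strain given for both groups. The labels of these samples state neither age nor sex. Total counts per heart ran from 33080675 to 54245530. The Y-linked gene Ddx3y was present in every heart, at 75.2 to 119 CPM (counts of a gene relative to all counts of the library, per 1e6, after scaling), and Xist has no value here.

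Myosin heavy chains form the motor heads and rod of the thick filament, and each head carries an essential and a regulatory light chain. The adult mouse ventricle is known for its fast alpha heavy chain (Myh6), whereas the slower beta heavy chain (Myh7) predominates before birth and rises in many forms of cardiac stress. Myosin-binding protein C (Mybpc3) decorates the thick filament and tunes how readily heads reach actin. The question asked of these genes was whether the thick filament transcripts of A178D ventricles differed from those of WT littermates.

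Levels between genes were compared per length, as CPM, scaled by the trimmed mean of M-values (TMM), divided by the kilobases of annotated exon. Per length, the ventricular regulatory light chain Myl2 had the highest mean level, with 6562 ± 335 in the 3 WT hearts (mean ± SD) and 6653 ± 454 in the 4 A178D hearts. Myh6 followed with 5945 ± 225 in WT and 5525 ± 216 in A178D, and then came the ventricular essential light chain Myl3 with 2993 ± 57.2 and 3221 ± 346. The ranges of Myl2 and Myh6 over the 7 hearts overlapped, and those of all other neighbours down to Myl4 were separated. These distances depend on the length used: per kilobase of the longest transcript, the means over all hearts were 14508 for Myl2, 6277 for Myh6 and 5674 for Myl3, in the same order. Mybpc3 came next, at 1347 ± 78.9 in WT and 1662 ± 53.9 in A178D. The cardiac light chain kinase Mylk3 reached 212 ± 5.17 and 201 ± 4.51, and Myh7 was found at 58.7 ± 28.1 and 105 ± 16.3. Myh7b, a slow-tonic heavy chain, stood at 17.4 ± 0.590 and 15.6 ± 1.63. The atrial essential light chain Myl4 had a level of 0.405 ± 0.00640 in WT and 0.637 ± 0.172 in A178D, orders of magnitude under its ventricular counterpart. Mybphl and the atrial regulatory light chain Myl7 were near the detection limit, and their order relative to each other could not be resolved. The 10 genes together took 6.48% to 6.82% of all counts in WT hearts and 6.36% to 6.81% in A178D hearts, with Myh6 alone at 3.59% to 4.19%.

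**Figure D1:**
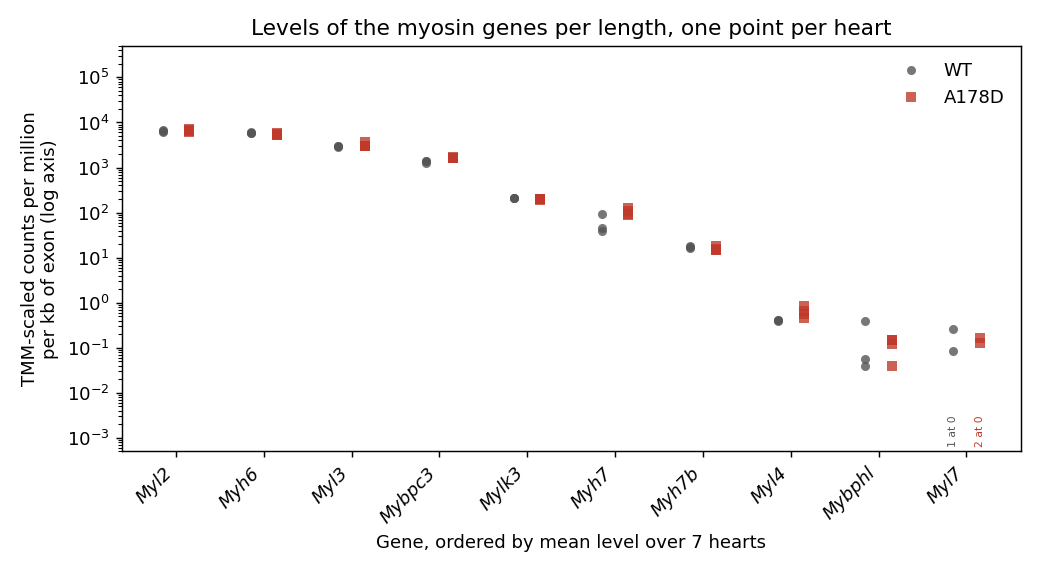
Levels of the 10 myosin genes per length in each heart, as TMM-scaled CPM per kilobase of exon on a log axis, with circles for the 3 WT and squares for the 4 A178D hearts; hearts with a count of 0 are written as such at the bottom. Myl2, Myh6, Myl3 and Mybpc3 lie at the top in every heart, while Myl4, Mybphl and Myl7 lie at the bottom.

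Of the 10 genes, 8 passed the filter on low counts and were tested with edgeR's quasi-likelihood test over 13894 genes, where 327 genes (2.35%) had an adjusted p under 0.05. In A178D hearts 145 of them (1.04%) were higher, and 182 (1.31%) were lower. Mybpc3 was the 1 member past that threshold, higher in A178D, and no member was called lower. Myh7, Myl4 and Mybpc3 had an unadjusted p under 0.05. The CPM of the groups did not overlap for 4 of the 8 tested members (Myh6, Myl4, Mylk3 and Mybpc3), against 16.1% of all tested genes. Of the 8 fold changes, 5 were positive and 3 negative, with a median log2 fold change of 0.06 beside 0.00 for all tested genes.

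Among the heavy chains, Myh7 (ENSMUSG00000053093, GRCm38 chr14:54970684-54994626, minus strand) was measured at 783, 336 and 398 CPM in WT replicates 1, 3 and 4. In A178D replicates 1 to 4 it was measured at 820, 1091, 779 and 939 CPM. All 4 A178D hearts thus stood well above WT replicates 3 and 4, but WT replicate 1 lay among them, just above A178D replicate 3. The mean was 506 ± 242 CPM (SD) in the 3 WT hearts and 907 ± 140 CPM (SD) in the 4 A178D hearts, a log2 fold change of 0.84 ± 0.22 (SE, 95% interval 0.37 to 1.32). The edgeR adjusted p was 0.067, above the threshold. With all 7 hearts Myh7 passed with limma-voom (adjusted p = 0.0379), without a filter on low counts (0.0217) and with offsets for length and GC content (0.0329). It also passed with hearts of the same number as a replicate block (0.0107), where A178D replicate 2 has no WT partner and does not inform the difference. It did not pass with DESeq2 (0.175), DESeq2 size factors in edgeR (0.0684), a filter of 10 counts in every library (0.0683), the table as deposited (0.0678) or counts halved (0.0650). It was called in 7 of 18 alternatives, and in 1 of the 7 fits that left out 1 heart. Without WT replicate 1 the log2 fold change was 1.31 and the adjusted p was 9.31e-05. Without WT replicate 3 it was 0.62, with an adjusted p of 0.249. Over the alternatives tried, the adjusted p ran from 4.44e-05 to 0.260, and the direction was the same in each of them.

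Myh6 (ENSMUSG00000040752, chr14:54941921-54966927, minus strand), which lies next to Myh7, was measured at 38733, 41671 and 39563 CPM in WT. The A178D hearts had 36176, 38074, 35695 and 38705 CPM. Every A178D heart was below every WT heart, though the closest pair, A178D replicate 4 and WT replicate 1, nearly touched. The log2 fold change of -0.11 ± 0.06 (SE) did not pass the test (edgeR adjusted p = 0.378). Per length, the mean level of Myh6 differed by -420 between A178D and WT, whereas that of Myh7 differed by 46.6. The summed level of the 3 heavy chains per length was 6022 ± 204 (SD) in the 3 WT hearts and 5646 ± 231 (SD) in the 4 A178D hearts, so that the alpha chain set the total in both groups. Myh7b (ENSMUSG00000074652, chr2:155611212-155634307, plus strand) had 111, 118 and 117 CPM in WT and 95.8, 102, 96.3 and 119 CPM in A178D. Its highest value was that of A178D replicate 4, so that the groups overlapped, and its log2 fold change of -0.16 ± 0.08 (SE) had an edgeR adjusted p of 0.352.

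The ratio of beta to alpha heavy chain was calculated per heart from counts per kb. Myh7 amounted to 1.58%, 0.630% and 0.785% of Myh6 in WT replicates 1, 3 and 4. In A178D replicates 1 to 4 it amounted to 1.77%, 2.24%, 1.70% and 1.89%. On this scale all 4 A178D hearts exceeded all 3 WT hearts, and WT replicate 1 was again the WT heart closest to them. The mean log2 ratio was 1.04 higher in A178D, a 2.05-fold difference (exact two-sided permutation test, p = 0.0286, the smallest that 3 against 4 hearts can give, and 0.1 after Benjamini-Hochberg adjustment over the 7 ratios). Leaving out WT replicate 1 raised the difference to 1.43, and leaving out WT replicate 3 lowered it to 0.76. Expressed as a share of both chains, Myh7 made up 0.987% ± 0.498 (SD) in the 3 WT hearts and 1.87% ± 0.228 (SD) in the 4 A178D hearts.

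Myh7b, measured against Myh7, gave 18.4%, 45.6% and 38.1% in WT and 15.2%, 12.2%, 16.1% and 16.5% in A178D. The groups did not overlap, with WT replicate 1 close to the A178D hearts. The log2 ratio was lower by 1.09 in A178D (log2 difference -1.09, exact permutation p = 0.0286, adjusted 0.1). It shares its Myh7 values with the ratio to Myh6 and is not a separate observation. Set against Gapdh, the reference gene of the study's qPCR, Myh7 gave 15.3%, 6.35% and 7.49% in WT and 13.7%, 19.1%, 13.8% and 14.7% in A178D. Here WT replicate 1 was higher than 3 of the 4 A178D hearts. The log2 difference was 0.75 (exact permutation p = 0.114, adjusted 0.2), and it ran from 0.50 to 1.14 over the alternatives. Gapdh itself was at 2455, 2539 and 2548 CPM in WT and at 2880, 2740, 2700 and 3072 CPM in A178D, without overlap, and did not pass the test (log2 fold change 0.18, edgeR adjusted p = 0.179).

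**Figure D2:**
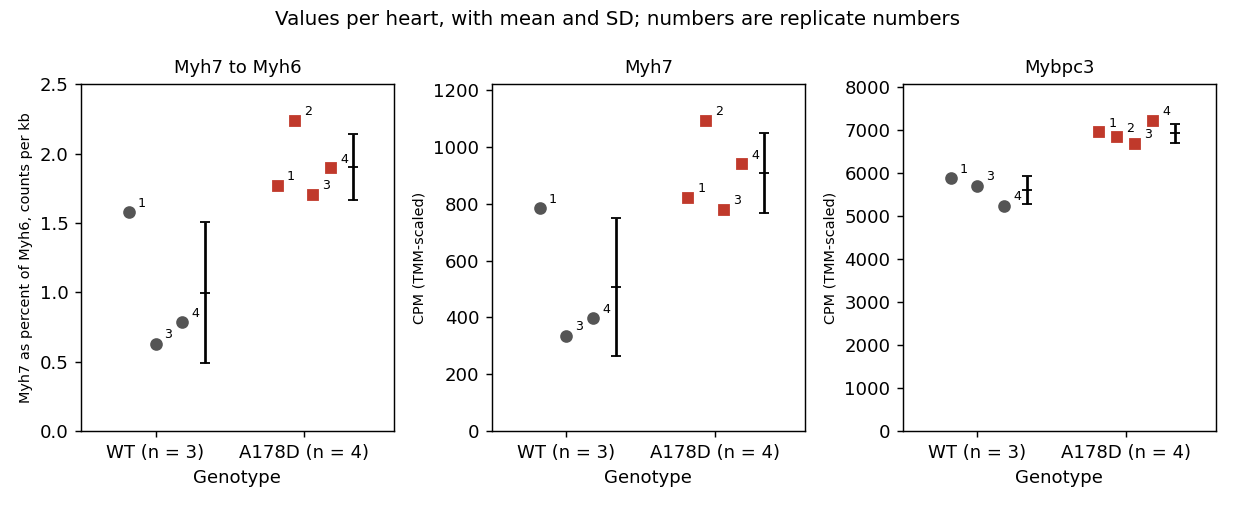
Myh7 as a percent of Myh6 (counts per kb), Myh7 in CPM and Mybpc3 in CPM for each heart, labelled with its replicate number; bars give the mean and SD of 3 WT and 4 A178D hearts, and all axes start at 0. WT replicate 1 reaches 1.58% and 783 CPM of Myh7, near the A178D hearts, whereas the 4 A178D hearts have 6677 to 7209 CPM of Mybpc3 and all lie above WT.

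Myh6 and Myh7 are close paralogs, and counts of one can include reads of the other. With Myh6 at 35695 to 41671 CPM and Myh7 at 336 to 1091 CPM, misassigned reads would weigh more on Myh7 and its ratios. Of the 6155 windows of 76 bases, the read length, in the longest Myh7 coding transcript, 928 (15.1%) also occur unchanged in Myh6, and no window of the other 8 genes was shared with a differently named gene. How such reads were counted is not given in the sources used here. The antisense transcript Mhrt overlaps exons of Myh7 and has no value here, and without knowing whether strand was used in counting, reads of the 2 transcripts cannot be told apart.

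The heavy chain genes host small RNAs of a muscle-specific family in their introns, which the poly(A) counts do not measure. The mature sequences are shown because the fold changes of their hosts Myh6 and Myh7 had opposite signs, though neither gene was called by edgeR. All 3 miRNAs were found in the RefSeq table (GRCm38.p6), and capitals mark the seed, bases 2 to 8.
miR-208a-3p, intron of Myh6, chr14:54949072-54949093, minus strand: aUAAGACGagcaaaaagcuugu
miR-208b-3p, intron of Myh7, chr14:54975710-54975731, minus strand: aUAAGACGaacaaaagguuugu
miR-499-5p, intron of Myh7b, chr2:155622893-155622913, plus strand: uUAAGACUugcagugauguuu
The arms from Myh6 and Myh7 have the same seed, and that from Myh7b differs from it only in the last base, base 8.

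Of the ventricular light chains, Myl2 (ENSMUSG00000013936, chr5:122100951-122113472, plus strand) had 12091, 12915 and 13382 CPM in WT and 12882, 11942, 12970 and 14103 CPM in A178D. The groups overlapped, with the lowest and the highest value both in A178D. The log2 fold change was 0.02 ± 0.07 (SE, 95% interval -0.12 to 0.16, edgeR adjusted p = 0.921), and its sign turned to -0.10 once trends with transcript length and GC content were removed. Myl3 (ENSMUSG00000059741, chr9:110741861-110769798, plus strand) ran from 5983 to 6198 CPM in WT and from 6157 to 7640 CPM in A178D. Of its A178D values 3 lay within or just above the WT range, and A178D replicate 4 stood apart at 7640 CPM. The log2 fold change of 0.11 ± 0.08 (SE, edgeR adjusted p = 0.530) became 0.00 after the same correction. In that library counts fell by 0.38 log2 units per 10-fold increase in transcript length relative to the mean of all hearts, and in WT replicate 1 they rose by 0.28. The summed light chains per length were 9555 ± 298 (SD) in the 3 WT hearts and 9875 ± 762 (SD) in the 4 A178D hearts.

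Atrial light chains were scarce. Myl4 (ENSMUSG00000061086, chr11:104550663-104595753, plus strand) had 100, 103 and 75 counts in WT and 162, 113, 111 and 99 counts in A178D, which correspond to 1.90, 1.89 and 1.85 CPM and to 4.01, 2.14, 2.60 and 3.06 CPM. The WT hearts were almost equal, closer than counting error at such counts, all A178D hearts were higher, and A178D replicate 1 was the highest. The log2 fold change of 0.65 ± 0.23 (SE) had an unadjusted p of 0.0134 and an edgeR adjusted p of 0.171, and was not called. Myl4 amounted to 0.0136%, 0.0134% and 0.0136% of Myl3 in WT and to 0.0283%, 0.0150%, 0.0186% and 0.0176% in A178D. The mean log2 ratio was 0.51 higher in A178D (exact permutation p = 0.0571, adjusted 0.133), and 0.33 higher without A178D replicate 1.

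Myl7 (ENSMUSG00000020469, chr11:5896637-5898782, minus strand) had 8, 0 and 2 counts in WT and 4, 4, 0 and 0 counts in A178D, and was not tested. Most fragments were counted once per read end, so the floor was set at 3 fragments or 6 counts. A heart at 0 then allows up to 0.110 CPM in WT replicate 3, 0.141 CPM in A178D replicate 3 and 0.185 CPM in A178D replicate 4, for counting error only. The ratio of Myl7 to Myl2 was therefore compared on a linear scale, where it was at most 0.00416%, in WT replicate 1, and did not differ beyond the spread (exact permutation p = 0.657, adjusted 0.767).

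The cardiac myosin light chain kinase Mylk3 (ENSMUSG00000031698, chr8:85324303-85386345, minus strand), which phosphorylates the regulatory light chain, had 914, 927 and 884 CPM in WT and 834, 872, 862 and 878 CPM in A178D. Every A178D heart was below every WT heart, with a small gap. The log2 fold change of -0.08 ± 0.06 (SE) was not called (edgeR adjusted p = 0.564). Relative to its substrate Myl2, it stood at 3.44%, 3.27% and 3.01% in WT and at 2.95%, 3.32%, 3.03% and 2.84% in A178D, and the groups overlapped (log2 difference -0.09, exact permutation p = 0.257, adjusted 0.36). This difference turned to 0.03 after correction for length and GC content.

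Myosin-binding protein C was the member called higher. Mybpc3 (ENSMUSG00000002100, chr2:91118144-91136516, plus strand) was measured at 5872, 5707 and 5239 CPM in WT. It was measured at 6952, 6832, 6677 and 7209 CPM in A178D. All 4 A178D hearts were above all 3 WT hearts, by a gap of the same order as the spread within WT, and WT replicate 1 did not stand apart here. The mean was 5606 ± 329 CPM (SD) in the 3 WT hearts and 6918 ± 225 CPM (SD) in the 4 A178D hearts, a 1.23-fold difference (log2 fold change 0.30 ± 0.06 SE, 95% interval 0.17 to 0.44, edgeR adjusted p = 0.023). The estimate stayed between 0.26 and 0.34 under the alternatives tried, while the adjusted p ran from 0.000615 to 0.1197. The call was lost without WT replicate 3 (adjusted p = 0.111), WT replicate 4 (0.1197), A178D replicate 1 (0.0872) or A178D replicate 3 (0.0510), and with hearts of the same number as a replicate block (0.0574).

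Mybphl (ENSMUSG00000068745, chr3:108364911-108380057, plus strand), a myosin-binding protein H-like gene known from atria and the conduction system, had 27, 4 and 2 counts in WT and 2, 8, 8 and 6 counts in A178D. It failed the filter on low counts, and WT replicate 1, which also had the most Myl7 counts, held the highest value. Its ratio to Mybpc3 was 0.0285%, 0.00419% and 0.00307% in WT and 0.00233%, 0.00725%, 0.00916% and 0.00839% in A178D. The log2 difference of -0.26 was within the spread (exact permutation p = 0.8, adjusted 0.8) and turned to 0.74 without WT replicate 1 and to 0.20 without A178D replicate 1.

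**Figure D3:**
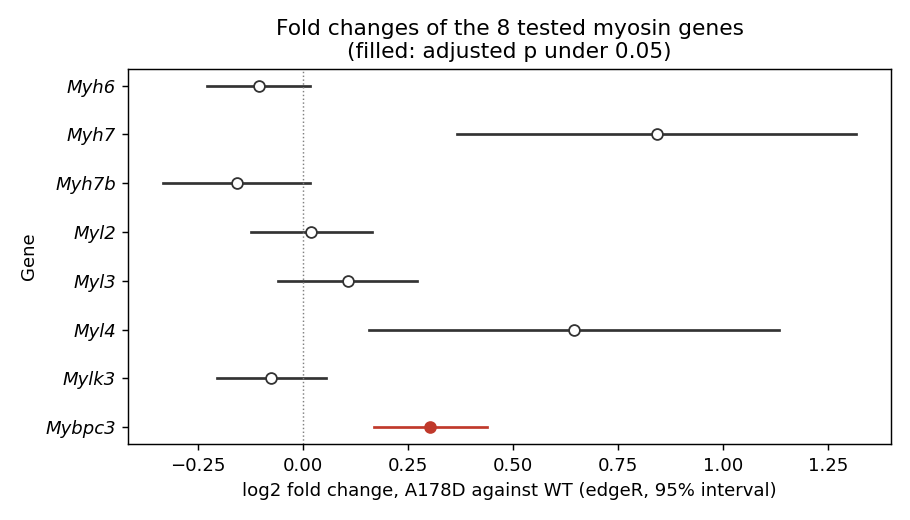
Log2 fold changes of the 8 tested myosin genes, A178D against WT, from edgeR with 95% intervals; the filled point has an adjusted p under 0.05. Mybpc3 is the filled point at 0.30, and Myh7 has a larger estimate of 0.84 with a wider interval of 0.37 to 1.32.

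The members differed in how much they varied between hearts of a group. In WT, the coefficient of variation was 47.9% for Myh7 against 1.58% to 5.86% for the other 7 tested genes. The 1.58% was that of Myl4, from 75 to 103 counts per WT heart. Counting error alone is larger than that, so the value does not show a steady gene. In A178D it was 15.4% for Myh7, 27.1% for Myl4 and 10.7% for Myl3, and 2.24% for Mylk3. The 5 genes whose log2 CPM followed Myh7 most closely over the 7 hearts, among 12212 genes with a mean count of at least 50, were Evi5l (Pearson r = 0.985), Hes1 (0.985), Lmnb2 (0.978), Klhl8 (0.973) and Riox2 (0.972). These correlations are the highest of many and are given as a description.

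Transcripts of the fetal gene programme accompany Myh7 in stressed hearts. These genes were listed with earlier results of these data known, so that their direction is not independent support. Of 4 genes, 2 were called higher in A178D, and the median log2 fold change was 1.05. Acta1, skeletal alpha-actin, had 183, 72.0 and 69.3 CPM in WT and 811, 495, 706 and 672 CPM in A178D (log2 fold change 2.64 ± 0.29 SE, edgeR adjusted p = 0.000651). Nppa, atrial natriuretic peptide, had 249, 188 and 109 CPM in WT and 529, 364, 322 and 588 CPM in A178D (log2 fold change 1.31 ± 0.24 SE, edgeR adjusted p = 0.0146). WT replicate 1 was the highest WT heart for both genes, and for both it remained below every A178D heart. It was also the highest WT heart for Nppb (177.6 CPM, A178D hearts 138 to 295) and Ankrd1 (1414 CPM, A178D hearts 1346 to 2081), where the groups overlapped and neither gene was called (edgeR adjusted p = 0.194 and 0.0591). The Nppa call was lost without WT replicate 3, WT replicate 4 or A178D replicate 1 (adjusted p up to 0.0860).

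Of the other sarcomeric heavy chains, none of 7 passed the filter. Myh2, the most abundant per length over all hearts though not within A178D, had 10, 16 and 4 counts in WT and 2, 2, 4 and 1 counts in A178D. Of 4 skeletal muscle light chains 3 were tested and none was called, with a median log2 fold change of 0.11. Myl1, the most abundant, had 18.8, 22.4 and 26.9 CPM in WT and 34.99, 25.3, 25.0 and 30.1 CPM in A178D (edgeR adjusted p = 0.215), and the groups overlapped. Of 3 other myosin-binding proteins only Mybpc2, the fast skeletal form, was tested, at 28.6 to 31.5 CPM in WT and 31.2 to 34.7 CPM in A178D (log2 fold change 0.12, edgeR adjusted p = 0.476).

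Among 10 light chain kinases and phosphatase genes, 9 were tested and 3 were called lower in A178D, with a list median of -0.14. Mylk4, a kinase of the same family as Mylk3, had 433, 502 and 573 CPM in WT and 373, 409, 401 and 352 CPM in A178D (log2 fold change -0.39 ± 0.09 SE, edgeR adjusted p = 0.0394). All A178D hearts were below all WT hearts. Mylk, the smooth muscle and nonmuscle light chain kinase, had 52.3, 41.9 and 43.5 CPM in WT and 30.1, 33.4, 38.5 and 28.9 CPM in A178D (log2 fold change -0.49, edgeR adjusted p = 0.0317). The call of Mylk4 was lost in 6 of the 7 fits that left out 1 heart and that of Mylk in 5, where the highest edgeR adjusted p was 0.179 for Mylk4 and 0.111 for Mylk. The call of Mylk was also lost with length and GC offsets and the replicate block together (0.0688), and without both WT replicate 1 and A178D replicate 4 (0.0672).

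Of 8 nonmuscle and smooth muscle myosin genes, 2 were called lower and none was called higher (median -0.13). Myh11, the smooth muscle heavy chain, had 168, 134 and 138 CPM in WT and 71.8, 103, 108 and 86.0 CPM in A178D (log2 fold change -0.67 ± 0.12 SE, edgeR adjusted p = 0.0146). Myl9, a smooth muscle regulatory light chain, had a log2 fold change of -0.49 and an edgeR adjusted p of 0.0494. The call of Myh11 was lost without WT replicate 3 or 4 (edgeR adjusted p = 0.0501 and 0.0547), and that of Myl9 in 6 of the 7 fits that left out 1 heart (up to 0.133), with the replicate block (0.0634) and with DESeq2 size factors in edgeR (0.0506). Of the 5 smooth muscle markers other than Myh11, 4 were called lower in A178D (Acta2, Tagln, Cnn1 and Lmod1). The summed level of all 6, to which Myh11 itself contributes, was 656, 658 and 614 CPM in WT and 398, 477, 492 and 490 CPM in A178D. Acta2 was the most abundant per length, and none was at 0. Their part in the lower Mylk, Myh11 and Myl9 was not tested, and in bulk tissue fewer cells of a type and less RNA per cell cannot be told apart.

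None of 8 myosin chaperone and methylation genes was called by edgeR, with a median log2 fold change of 0.14. Hsp90ab1, the most abundant, had 1432 to 1522 CPM in WT and 1589 to 1812 CPM in A178D without overlap (log2 fold change 0.20, edgeR adjusted p = 0.154). Hsp90aa1 had the smallest p of the list (log2 fold change 0.40, edgeR adjusted p = 0.103) and was called in 5 of 18 alternatives, among them DESeq2 (0.0284) and the replicate block (0.0109). None of 10 genes of thick filament anchors and the M-band was called by edgeR, with a median of 0.04. Ckm, the M-band creatine kinase, was the most abundant per length (log2 fold change 0.09, edgeR adjusted p = 0.622), and Trim54 had the smallest p (log2 fold change 0.28, edgeR adjusted p = 0.1199, DESeq2 0.0473). Of 29 listed regulators of cardiac myosin genes, 27 were tested, none was called higher and 2 were called lower, with a median of -0.07. Gata6, a cardiac transcription factor, had 65.0, 65.1 and 70.4 CPM in WT and 45.1, 54.5, 51.6 and 51.3 CPM in A178D (log2 fold change -0.40 ± 0.08 SE, edgeR adjusted p = 0.0177). Ppara, a nuclear receptor of fatty acid metabolism, had a log2 fold change of -0.38 ± 0.07 (SE, edgeR adjusted p = 0.0144). The call of Gata6 was lost without WT replicate 3, WT replicate 4 or A178D replicate 1 (edgeR adjusted p up to 0.0975), and that of Ppara without WT replicate 4 or A178D replicate 1 (up to 0.0772).

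Markers of other cell types were read beside these genes. None of 9 cardiomyocyte markers was called, and their sum was 74081 to 80651 CPM in WT and 74700 to 80269 CPM in A178D, with Actc1 the most abundant per length. Of 10 atrial markers 8 were tested and Nppa alone was called, higher, and it was also the most abundant. Of the other 7 tested, 6 had negative log2 fold changes, and Bmp10 was at 0 in every heart. The sum of the list was 269 to 410 CPM in WT and 465 to 723 CPM in A178D. None of 8 conduction system markers was called (sum 60.8 to 70.0 CPM in WT, 61.8 to 84.4 in A178D). Mean levels per length over all hearts were 2.40 for both Cacna1g and Tbx3 after rounding. By group, Tbx3 was higher in WT (2.54 against 2.37) and Cacna1g in A178D (2.43 against 2.30). The 9 skeletal muscle markers summed to 2.90 to 4.70 CPM in WT and 2.83 to 3.95 CPM in A178D, with Tnni2 the most abundant and none of the 4 tested called. Of 5 endothelial markers none was called (713 to 859 CPM in WT and 731 to 799 CPM in A178D), and Cdh5 was the most abundant per kilobase of exon, though not in CPM. Fibroblast markers had 1 of 6 called, Col3a1, higher in A178D, and summed to 1044 to 1153 CPM in WT and 1229 to 1357 CPM in A178D, with Dcn the most abundant. Macrophage markers had 1 of 6 called, Lyz2, also the most abundant, higher in A178D (called in 12 of 18 alternatives, adjusted p up to 0.117), and summed to 258 to 329 CPM and 331 to 370 CPM. The part of these shifts in the myosin results was not tested.

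Promoters of Myh6, Myh7 and Mybpc3 are shown because the fold changes of Myh6 and Myh7 had opposite signs and Mybpc3 was the called member. Neither Myh6 nor Myh7 was called by edgeR. All 10 genes were found in the RefSeq promoter table (GRCm38.p6), in 13 windows of 300 bases from 250 bases before to 50 after an annotated start. Capitals mark matches, on either strand, to the MCAT core (6 bases), a GATA site (6 bases), a TATA box (6 bases) or the CArG box (10 bases), and none of the matches shown overlapped.
Myh6, chr14:54966558-54966857, minus strand: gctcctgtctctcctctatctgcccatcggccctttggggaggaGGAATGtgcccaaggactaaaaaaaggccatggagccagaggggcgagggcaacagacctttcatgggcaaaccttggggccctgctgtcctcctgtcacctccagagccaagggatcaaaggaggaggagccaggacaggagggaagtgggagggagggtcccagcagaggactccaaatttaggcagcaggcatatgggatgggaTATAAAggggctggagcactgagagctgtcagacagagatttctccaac
Myh7, chr14:54994577-54994876, minus strand: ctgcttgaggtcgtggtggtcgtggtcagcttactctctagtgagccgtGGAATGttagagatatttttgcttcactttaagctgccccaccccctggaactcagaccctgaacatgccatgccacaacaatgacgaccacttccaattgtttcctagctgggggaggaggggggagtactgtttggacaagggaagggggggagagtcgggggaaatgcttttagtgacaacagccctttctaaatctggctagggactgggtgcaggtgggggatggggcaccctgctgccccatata
Mybpc3, chr2:91117894-91118193, plus strand: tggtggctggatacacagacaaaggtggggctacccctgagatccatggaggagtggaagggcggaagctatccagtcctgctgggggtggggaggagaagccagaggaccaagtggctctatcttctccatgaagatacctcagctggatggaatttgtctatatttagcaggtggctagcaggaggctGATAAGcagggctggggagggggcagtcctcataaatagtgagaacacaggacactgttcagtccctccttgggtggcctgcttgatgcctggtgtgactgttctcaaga
The MCAT core, marked at bases 45 to 50 of Myh6 and 50 to 55 of Myh7, was found in 5 of the 13 windows (Myh6, Myh7, Myl3, Myl7 and Mylk3) and in 14.7% of all 32851 promoter windows of this length. The GATA site, at bases 191 to 196 of Mybpc3, was found in 3 windows (Mybpc3, Myl7 and Mylk3) and 7.44% of all windows, the TATA box in 2 windows (Myh6, bases 252 to 257, and Myl2) and 13.6%, and the CArG box in 2 windows (Myl3 and Myl7) and 1.63%. A match of letters is a description and not a bound site. The second Myh7 window of the table, chr14:54994500-54994799, overlaps the first and holds none of these motifs.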

How the data were processed

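Left ventricle RNA of 3 WT and 4 A178D hearts was analysed from raw counts per gene as deposited. Per the labels, libraries were stranded poly(A) RNA with paired reads of 76 bases, and the submitters' processing notes name bcl2fastq 2.18.0.12, HISAT2 2.1.0, SAMtools 1.6, DESeq2 1.26.0 and build GRCm38; the counting program is not given in the sources used here. The deposited table of the authors' own test was not used. Of 21257 entries, those with identical counts in every heart were merged to 1 where they summed to 30 or more, and others only where the identifier also repeated, leaving 20927 genes. Of counts from 1 to 20, 17.6% to 20.3% were odd, so most fragments were counted once per read end. Ensembl identifiers were matched to symbols and exon lengths in GENCODE M21, and 300 entries had no name. Of 2 Gapdh entries the larger was used.

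Genes with at least 10 counts in 3 or more hearts were tested with edgeR 4.0.16 (quasi-likelihood, TMM, R 4.3.3), with Benjamini-Hochberg adjusted p over all tested genes. Alternatives used DESeq2 1.42.0, limma 3.58.1 (voom), offsets for transcript length and GC content fitted with mgcv 1.9.3 (basis size 6), other filters, a replicate block and each heart left out. Ratios per heart were tested with exact two-sided permutation. Myl7 had 0 counts in 3 hearts, so its ratio was tested on a linear scale and no genes were sought that follow it. The scripts were tested on simulated data. Named genes were all members, called genes of related lists or otherwise the most abundant and that with the smallest p, the genes most correlated with Myh7, the most abundant or absent markers, Xist and Ddx3y. Of the called genes in related lists, 1 is not reported here. Members and lists were chosen with earlier results of these data known. Col3a1, Tagln, Cnn1, Lmod1, Nppb, Ankrd1 and Tbx3 were named after their values were seen. No pair of libraries of a group agreed within sampling noise. Floors cover counting error only, and edgeR intervals also hold the spread between hearts.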

Additional observations from a re-analysis of the deposited data

Results flagged for a closer look

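In the A178D group of 4 hearts, 5 values stood apart from the other 3 by most of the group's range. Myl3 was highest in A178D replicate 4, at 7640 CPM, the library in which counts fell most with transcript length. Mybpc2 was highest in A178D replicate 1, at 34.7 CPM, and the fibroblast gene Dcn was highest in the same heart, at 646 CPM. The smooth muscle marker sum was lowest in A178D replicate 1, at 398 CPM, and the macrophage marker sum was lowest in A178D replicate 3, at 331 CPM. Chance sets about 1 in 20 such groups apart, and 56 such groups were examined. Groups of 3 are not examined this way, so that the position of WT replicate 1 in Myh7 was not assessed by it.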

How the results depend on the processing

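With other settings the number of genes called was 686 with DESeq2, 64 at an adjusted p under 0.01 and 53 to 453 when 1 heart was left out (53 without WT replicate 3, 453 without WT replicate 1). Members called were 2 with limma-voom, without a filter, and with length and GC offsets with or without the replicate block (Myh7 and Mybpc3 each time), 0 at an adjusted p under 0.01, and 0 to 2 with 1 heart left out. Called genes of the related lists were 9, 1 at an adjusted p under 0.01, and 1 to 10 with 1 heart left out. Leaving out WT replicate 1 and A178D replicate 4 together, chosen after seeing the data because their counts trended most with transcript length, gave 760 genes and 3 members (Myh7, Myh7b and Mybpc3). With a replicate block 271 genes were called; Myh7 was called (adjusted p = 0.0107), Mybpc3 was not (0.0574), and the member count stayed 1. Hearts with the same number did not deviate together over all tested genes (correlations of -0.0424 to 0.00313). The labels do not say what the numbers stand for, and a factor shared by some genes only could go unseen. Whether the numbers pair hearts is therefore not known. With the replicate block the log2 ratio differences were 0.96 for Myh7 to Myh6, -0.998 for Myh7b to Myh7, 0.63 for Myl4 to Myl3, -0.35 for Mybphl to Mybpc3, -0.14 for Mylk3 to Myl2 and 0.64 for Myh7 to Gapdh, and -9.44e-06 on the linear scale for Myl7 to Myl2, and 3 pairs cannot give an exact p under 0.25.

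Directions that reversed were all of values that were not called. Mylk3 to Myl2 became 0.02575 with offsets. With 1 heart left out, Myl7 to Myl2 ranged over -1.53e-05 to 5.53e-06, and Mybphl to Mybpc3 from -0.87 to 0.74. Fits with 1 heart left out cannot give an exact p under 0.0667 (2 against 4) or 0.1 (3 against 3). The log2 fold change of Myl2 became -0.10 with offsets, -0.0763 with offsets and replicate block, -0.0614 without both trending libraries and -0.0224 to 0.0608 with 1 heart left out, and that of Myl3 -0.00427 with offsets. Ckm became -0.0417 without both. Cacna1g became -0.0476 with the replicate block, -0.0642 without both and -0.0782 to 0.140 with 1 heart left out. Tnni2 ranged from -0.298 to 0.137 with 1 heart left out. Dcn became -0.000809 without a filter, -0.0514 without both and -0.0675 to 0.0581 with 1 heart left out. Ddx3y became 0.0172 without both and -0.165 to 0.0376 with 1 heart left out. A tally covered 31 genes, 1 of which is not reported here, under 18 alternative fits and a stricter threshold. Of its 589 values, 502 kept direction and side of the threshold. Gapdh, the genes named after their values were seen and those most correlated with Myh7 were not in it. The order of the members per length was the same with the longest transcript. Depth limits Myl7, where a heart's count of 0 allows up to 0.185 CPM at 6 counts, the 2 ends of 3 fragments.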
